A study of Homo sapiens with 12 samples.

Results

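The integrated stress response and the targets of its transcription factor ATF4 were followed through 37 genes in 2 human prostate cancer cell lines given inhibitors of histone demethylases. The rule lists them by symbol and holds no measured value, but the list was drawn up with earlier results of these data known. They made up 37 of the 60675 genes counted in each library. Each symbol matched 1 Ensembl gene, and all 37 passed the filter on low counts in every comparison.

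LNCaP is an androgen-dependent prostate cancer line, and LNCaP:C42 (C4-2 below) is a castration-resistant line derived from it. Every one of the 12 libraries was made from cells held for 72 h in charcoal-stripped serum with 1 nM of R1881, a synthetic androgen, so that no library showed either line without androgen. Namoline, an inhibitor of the demethylase KDM1A, was given at 50 µM. TCE-5002 inhibits the demethylase KDM7A, and the study states that KDM7B (PHF8) and KDM2A are targets of it as well. The dose of TCE-5002 is uncertain, because the series description gives 100 µM and the study's methods a lower one. The 6 groups held 2 libraries each. C4-2 cells had R1881 alone, R1881 with namoline, R1881 with TCE-5002, or R1881 with both inhibitors (the combination), and LNCaP cells had R1881 alone or with the combination. The study's methods list DMSO as the vehicle with R1881 alone and in the inhibitor treatments. The study's methods call the replicates biological, while neither they nor the labels say how separate the cultures were, so the p-values measure the spread between these libraries.

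In the integrated stress response, kinases that sense different stresses phosphorylate the translation initiation factor eIF2alpha. Bulk protein synthesis then falls, while translation of ATF4 mRNA rises, so the mRNA level of ATF4 is not a measure of its protein. ATF4 pairs with C/EBP proteins and switches on enzymes and transporters of amino acid supply, together with factors such as DDIT3 (CHOP), ATF3 and TRIB3. PPP1R15A (GADD34) closes the loop by directing a phosphatase to eIF2alpha.

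The sequence that ATF4 and C/EBP partners recognise was sought near the members' start sites. Windows of 300 bases, from 250 before to 50 after each annotated start, were taken from RefSeq (GRCh38.p14) for 29 members (46 windows). The C/EBP-ATF response element was searched as TGATGNAA on both strands (TTNCATCA in reverse), and the cyclic AMP response element as TGACGTCA, which reads the same on both strands. The same 8 bases cannot match both patterns. The following runs hold the matches, with the matched bases in capitals and the strand of the gene shown 5′ to 3′.
ASNS: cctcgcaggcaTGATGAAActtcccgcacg
ATF3: aaaggtcaggaTGATGGAAggctgtcatat
CEBPG: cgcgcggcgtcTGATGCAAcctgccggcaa
CHAC1: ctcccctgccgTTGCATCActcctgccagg
FGF21: aaacaccaggaTTGCATCAgggaggaggag
JDP2: atagccggggcTGATGCAAcccgtccc
PPP1R15A: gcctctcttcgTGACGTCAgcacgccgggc

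The C/EBP-ATF element was present in 6 of the 29 member genes, against 4.46% of all 27305 genes with a window (3.62% of 35116 windows). It lay 61 bases before the start of ASNS (chr7:97872458-97872487, minus strand), 184 before ATF3 (chr1:212565205-212565234), 35 before CEBPG (chr19:33374060-33374089) and 9 before JDP2 (chr14:75427995-75428021), the last 3 on the plus strand. In reverse orientation it lay 202 bases before a start of CHAC1 (chr15:40953251-40953280) and 47 before FGF21 (chr19:48755459-48755488), both plus-strand genes. The cyclic AMP response element was found in 1 of the 29 member genes, PPP1R15A, 51 bases before its start (chr19:48872352-48872381, plus strand). This count is near the share of all genes with a window, 2.25% (1.85% of all windows). These matches describe letters in a window and do not show binding, and the lack of a match does not show that binding is absent. No window was matched for ALDH1L2, EIF4EBP1, GPT2, INHBE, NUPR1, PSPH, PYCR1 or SHMT2.

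Library totals ran from 14791602 to 20690819 counts. Levels below are in CPM, counts divided by library size on a scale common to all 12 libraries, and a member was called when the edgeR adjusted p was under 0.05 over all genes tested and the change was at least 2-fold. Replicates differed most in C4-2 with TCE-5002, at a chi-square statistic of 27.9 per gene against 3.61 to 9.76 in the other groups. The libraries labelled LNCaP stood apart from C4-2 beyond the treatment: the summed level of 10 luminal prostate markers was 860 to 923 CPM with R1881, against 3758 to 3848 CPM in C4-2, and that of 8 mesenchymal markers was 822 to 908 CPM against 30.3 to 30.4 CPM. Of 5 neuroendocrine markers the sum was 136 to 138 CPM against 3.33 to 3.37 CPM. The part of this difference in the line comparisons below was not tested. Inside the file of LNCaP combination replicate 1 the count column is named for namoline without TCE-5002, against its label, while the other 11 files match theirs. The label was followed, and the effects of the combination in labelled LNCaP are given with that library and, where they turn on it, without it. In bulk RNA, fewer cells of a type and less RNA per cell cannot be told apart.

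In C4-2 cells with R1881 alone the mRNA levels of the members spanned a wide range. Per kilobase of exon, the scale on which genes can be compared, the highest members were PSAT1 (359 CPM per kb), DDIT3 (294 CPM per kb, or 408 over the bases shared with no other gene), ATF4 (291 CPM per kb) and ASNS (229 CPM per kb), so that the order of PSAT1 and DDIT3 depends on the length used. The lowest were ALDH1L2 (0.137 CPM per kb), INHBE (1.86 CPM per kb) and UPP1 (3.02 CPM per kb). The 37 genes together took 9835 and 10010 CPM in the R1881 libraries, 4078 and 4053 CPM with namoline, 5678 and 6398 CPM with TCE-5002, and 9457 and 10365 CPM with the combination. The summed level was thus lower in both groups with an inhibitor alone, and its range with the combination spanned that with R1881. The mean log2 CPM of the members, which gives each gene equal weight, was lower with the combination (6.56 and 6.66) than with R1881 (6.96 and 6.99).

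**Figure D1:**
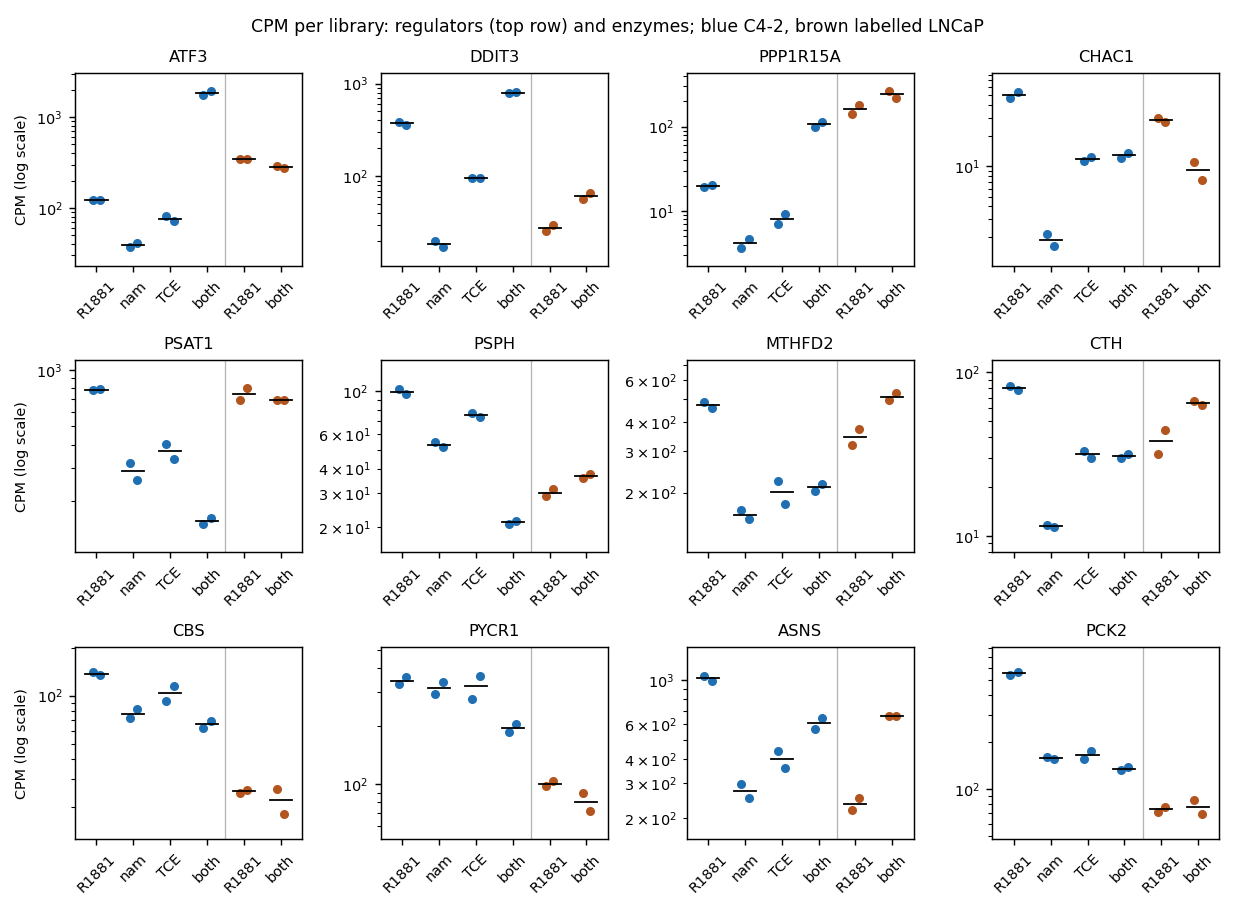
CPM on a log axis in each of the 12 libraries for 4 regulators (ATF3, DDIT3, PPP1R15A, CHAC1) and 8 enzymes; points are libraries, black lines are the mean of 2 libraries, blue is C4-2, brown is labelled LNCaP, nam is namoline, TCE is TCE-5002 and both is the combination. In C4-2, ATF3 stood at 122 CPM with R1881 and at 1751 and 1918 CPM with both inhibitors, while PSAT1 went from 777 and 794 CPM to 151 and 163 CPM.

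Namoline lowered most of the module in C4-2. Of the 37 members 25 fell and 0 rose, against 6.88% of all 17702 genes tested that fell and 5.17% that rose. By adjusted p alone 33 were lower and 1, EIF2AK4, was higher (16.3% and 18.7% of all genes), and 1 was higher at an unadjusted p under 0.05 and 0 by DESeq2. Both namoline libraries lay below both R1881 libraries in 33 members and above them in 3, against 35.0% and 37.7% of all genes. The members' median log2 fold change was -1.57, against 0.00 for all genes. All 7 signalling and feedback genes fell, as did 8 of the 9 transcription factors, but 4 of the 10 serine, cysteine and proline synthesis enzymes.

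DDIT3, a pro-apoptotic transcription factor of the stress response, was at 386 and 358 CPM with R1881 and at 20.3 and 17.3 CPM with namoline. This is a 20.1-fold lower level (log2 fold change -4.33, SE 0.13, edgeR adjusted p 7.61e-11). CHAC1, which degrades glutathione, went from 46.5 and 53.3 CPM to 2.12 and 1.62 CPM, or 27.0-fold lower (-4.75, SE 0.19, edgeR adjusted p 2.19e-09). FGF21, a secreted metabolic hormone, was at -4.65 (SE 0.42, edgeR adjusted p 1.56e-06), a value that rested on 4 and 3 counts in the namoline libraries against 104 and 90. These 3 had the largest fitted falls among the members, and the R1881 and namoline libraries did not overlap for any of them.

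The other regulators fell by less. ATF3, a stress-induced repressor of transcription, went from 122 CPM in both R1881 libraries to 36.7 and 40.6 CPM (-1.68, SE 0.12, edgeR adjusted p 1.25e-07). PPP1R15A went from 19.2 and 20.3 CPM to 3.64 and 4.67 CPM (-2.27, SE 0.18, edgeR adjusted p 4.24e-07). ATF4 itself went from 722 and 742 CPM to 332 and 301 CPM (-1.23, SE 0.11, edgeR adjusted p 2.04e-06). The fall in ATF4 mRNA was thus smaller than that in DDIT3 or CHAC1 mRNA. Also called lower were TRIB3 (-2.36), a pseudokinase that restrains ATF4 activity, the leucine sensor SESN2 (-2.54), NIBAN1 (-2.80) and GTPBP2 (-2.53). EIF4EBP1, a translation repressor, was near the limit (-1.02, and -0.97 without C4-2 R1881 replicate 2). Of the remaining factors, CEBPG (-2.00), NUPR1 (-2.16), JDP2 (-1.76), CEBPB (-1.75) and CREBRF (-1.34) fell, and ATF5 at -0.96 (edgeR adjusted p 0.000397) missed the 2-fold limit, which it passed with GC correction (-1.13) and without C4-2 namoline replicate 2 (-1.07).

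Among enzymes, the fall was steepest for CTH, which makes cysteine from cystathionine: 82.5 and 78.0 CPM with R1881 and 11.6 and 11.4 CPM with namoline (-2.82, SE 0.13, edgeR adjusted p 6.73e-09). ASNS, asparagine synthetase, went from 1049 and 993 CPM to 298 and 252 CPM (-1.91, SE 0.13, edgeR adjusted p 1.04e-07). The mitochondrial folate enzyme MTHFD2 (-1.57), the serine enzyme PSAT1 (-1.46), the mitochondrial PEP carboxykinase PCK2 (-1.82) and uridine phosphorylase UPP1 (-1.29) also fell. PHGDH and PSPH, the first and last enzymes of serine synthesis, had log2 fold changes of -0.65 and -0.93 and passed by adjusted p alone. SHMT2 (-0.77), CBS (-0.85) and GPT2 (-0.50) did likewise. Both proline enzymes lay near 0: PYCR1 at -0.14 (edgeR adjusted p 0.448) and ALDH18A1 at 0.16 (edgeR adjusted p 0.259). ALDH1L2 passed in C4-2 (-1.51, edgeR adjusted p 0.0423) on 5 and 9 counts against 28 and 16, and lost the call with DESeq2 or without any 1 of the 4 libraries compared. The secreted factors STC2 (-2.19) and INHBE (-3.18) fell, GDF15 (-0.62) and the lipoprotein receptor VLDLR (-0.83) did not reach 2-fold, and the kinases EIF2AK3 (PERK, 0.06) and EIF2AK4 (GCN2, 0.63) were not called.

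**Figure D2:**
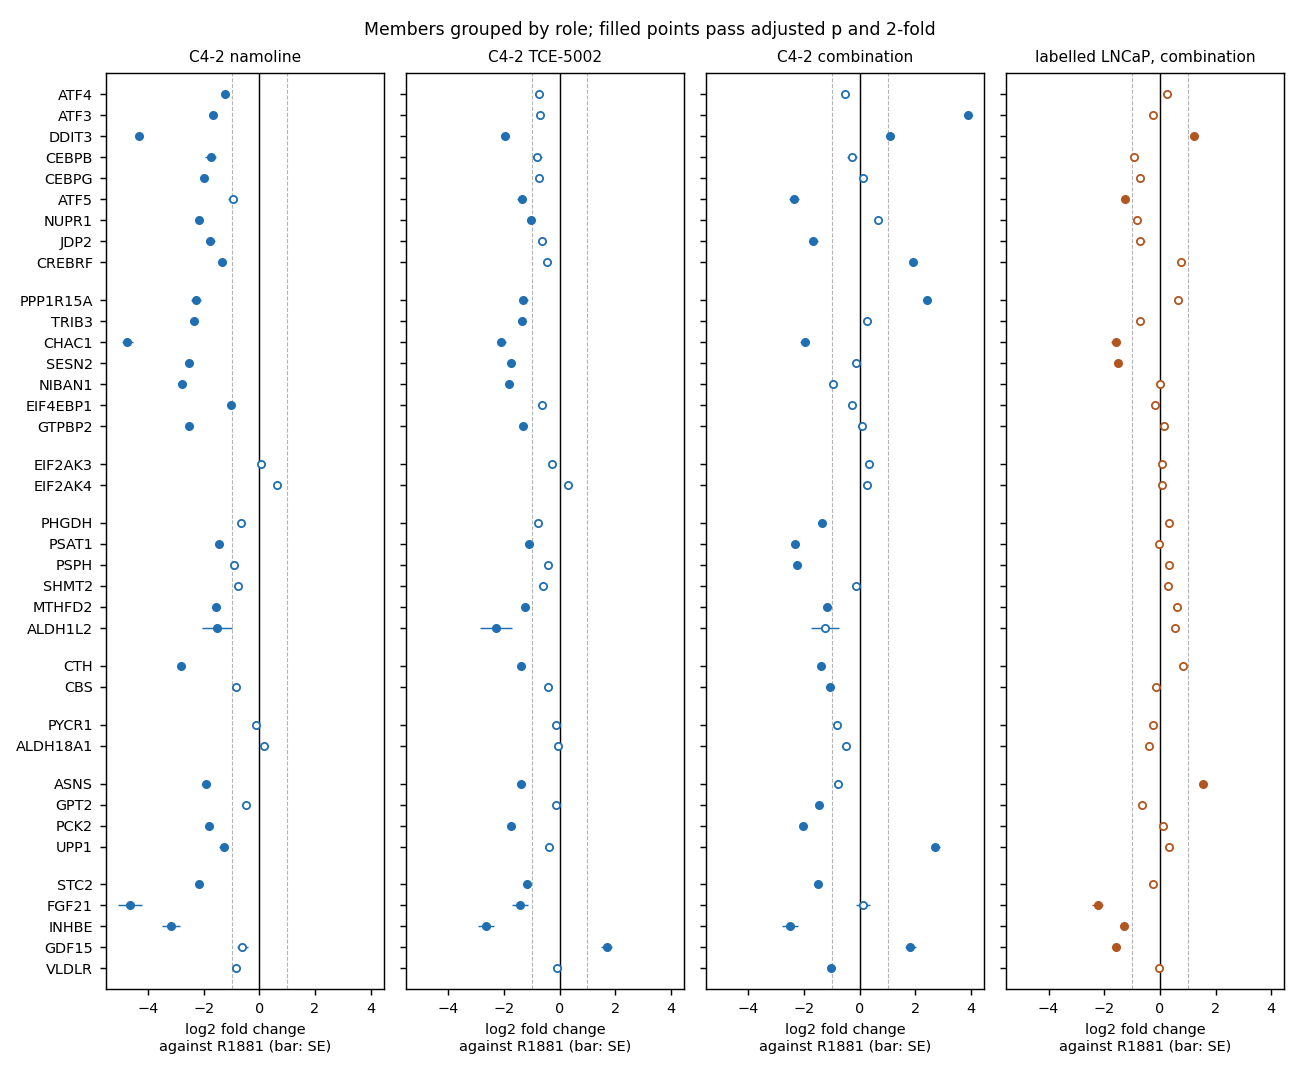
Log2 fold change against R1881 (horizontal axis) of each of the 37 members, in rows grouped by role, with each inhibitor and with both in C4-2 (blue) and with both in labelled LNCaP (brown); bars are the SE, filled points were called and dashed lines mark 2-fold. The 3 C4-2 comparisons share the same R1881 libraries. With namoline 25 points are filled, all to the left of 0, whereas with the combination ATF3 lies at 3.90 and PSAT1 at -2.34.

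TCE-5002 alone lowered 18 members in C4-2 and raised 1, against 6.80% and 5.04% of all genes tested, with a median log2 fold change of -0.81. By adjusted p alone 29 were lower and 1 higher (16.7% and 19.9% of all genes). The comparison uses the same R1881 libraries as that of namoline, so their results are not independent. DDIT3 stood at 95.7 and 96.8 CPM (-1.97, SE 0.12, edgeR adjusted p 1.63e-07) and CHAC1 at 11.3 and 12.4 CPM (-2.09, SE 0.15, edgeR adjusted p 4.75e-07). PPP1R15A was at 7.04 and 9.21 CPM (-1.30, SE 0.16, edgeR adjusted p 3.74e-05). ATF3, at 80.7 and 70.8 CPM, was below both R1881 libraries by less than 2-fold (-0.71, SE 0.11, edgeR adjusted p 0.00026), and so was ATF4, at 423 and 456 CPM (-0.75, SE 0.11, edgeR adjusted p 0.000164).

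Further calls with TCE-5002 were made for NIBAN1 (-1.82), SESN2 (-1.75), TRIB3 (-1.34), GTPBP2 (-1.30), ATF5 (-1.36) and NUPR1 (-1.04), the last of which was -0.98 and -0.89 without C4-2 R1881 replicate 2 and C4-2 TCE-5002 replicate 1. Among enzymes PCK2 (-1.75), ASNS (-1.38), CTH (-1.37), MTHFD2 (-1.25) and PSAT1 (-1.11) fell. PSAT1 was -0.98 without C4-2 TCE-5002 replicate 2. INHBE (-2.65), STC2 (-1.16) and FGF21 (-1.43) fell too, FGF21 on 27 and 48 counts. ALDH1L2 was called at -2.29 on 7 and 2 counts and lost the call, at -2.09, without C4-2 R1881 replicate 1. PHGDH (-0.78), SHMT2 (-0.59), PSPH (-0.42) and CBS (-0.42) passed by adjusted p alone, as did the transcription factors CEBPG (-0.73), JDP2 (-0.64), CREBRF (-0.45) and CEBPB (-0.81, and -1.18 without C4-2 TCE-5002 replicate 2) and EIF4EBP1 (-0.63). PYCR1 (-0.12), ALDH18A1 (-0.07), GPT2 (-0.12), UPP1 (-0.38), VLDLR (-0.09), EIF2AK3 (-0.28) and EIF2AK4 (0.29) did not pass either limit.

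GDF15, a secreted stress cytokine, was the 1 member that rose with TCE-5002. It was at 266 and 338 CPM with R1881, 193 and 206 CPM with namoline and 733 and 1246 CPM with TCE-5002 (1.70 against R1881, SE 0.20, edgeR adjusted p 2.37e-05). The TCE-5002 libraries differed widely for this gene, but both lay above all R1881 and namoline libraries.

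Set directly against each other, namoline gave the lower level in 11 members and the higher in 0, where 2.53% and 2.42% of all genes tested were called. At an unadjusted p under 0.05 4 members were higher, and DESeq2 called 0 higher. Without the 2-fold limit 25 differed, against 18.2% of all genes. The median difference was -0.73. CHAC1 (-2.66), DDIT3 (-2.36), FGF21 (-3.22, on 4 and 3 counts with namoline) and GDF15 (-2.31) differed most. CTH (-1.45), CEBPG (-1.28), GTPBP2 (-1.23), JDP2 (-1.12), NUPR1 (-1.11), STC2 (-1.03) and TRIB3 (-1.02) completed the calls, and those of JDP2, NUPR1, STC2 and TRIB3 were lost without C4-2 TCE-5002 replicate 2 (-0.96, -0.93, -0.99 and -0.78). ATF3 (-0.97), NIBAN1 (-0.98) and UPP1 (-0.91) passed 2-fold without that library (-1.05, -1.04 and -1.03), CEBPB (-0.94) and PPP1R15A (-0.97) without C4-2 TCE-5002 replicate 1 (-1.25 and -1.17), and CREBRF (-0.88) without C4-2 namoline replicate 1 (-1.09). None of the 6 serine and one-carbon enzymes was called in this comparison, the differences running from -0.51 for PSPH to 0.78 for ALDH1L2.

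With both inhibitors the module split. Against R1881, 6 members rose and 14 fell, with 8.87% and 12.8% of all genes tested called in those directions, and the median log2 fold change of the members was -0.54 against -0.03 for all genes. By adjusted p alone 8 were higher and 19 lower (24.8% and 25.6% of all genes). The combination libraries lay above both R1881 libraries in 12 members and below them in 23, against 39.5% and 41.2% of all genes. The members that rose were ATF3, DDIT3, PPP1R15A, CREBRF, UPP1 and GDF15. Of the 10 serine, cysteine and proline synthesis enzymes 6 fell and 0 rose, with a median of -1.21, while the 4 regulators set against them (DDIT3, ATF3, PPP1R15A and CHAC1) had a median of 1.76, with 3 up and CHAC1 down. Of the enzymes 0 were higher by unadjusted p under 0.05 in edgeR, and DESeq2 called 0 higher.

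ATF3 reached 1751 and 1918 CPM with the combination, 14.9-fold above R1881 (3.90, SE 0.12, edgeR adjusted p 6.32e-11). PPP1R15A reached 99.6 and 114 CPM (2.42, SE 0.15, edgeR adjusted p 2.86e-08) and DDIT3 782 and 819 CPM (1.09, SE 0.11, edgeR adjusted p 2.67e-06). For these 3 genes both combination libraries lay above every other C4-2 library. CREBRF, a regulator of CREB3 factors, went from 43.2 and 43.4 CPM to 158 and 175 CPM (1.93, SE 0.13, edgeR adjusted p 6.68e-08). UPP1 went from 13.6 and 14.1 CPM to 95.3 and 88.0 CPM (2.72, SE 0.15, edgeR adjusted p 1.34e-08). GDF15 stood at 980 and 1155 CPM (1.81, SE 0.20, edgeR adjusted p 5.45e-06), within the range of the TCE-5002 libraries.

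CHAC1 did not move with the other regulators named above: it was at 12.1 and 13.4 CPM when both were given (-1.98, SE 0.15, edgeR adjusted p 2.06e-07). ATF5 went from 64.3 and 65.7 CPM to 11.2 and 14.5 CPM (-2.36, SE 0.17, edgeR adjusted p 1.49e-07) and JDP2 was called at -1.67. A further group lay near its R1881 level: CEBPG at 0.11, TRIB3 at 0.27, GTPBP2 at 0.08, SESN2 at -0.14, CEBPB at -0.28 and FGF21 at 0.11, with edgeR adjusted p from 0.101 to 0.731. EIF4EBP1 (-0.29), EIF2AK3 (0.35) and EIF2AK4 (0.26) were likewise not called. ATF4 was at 476 and 538 CPM, below both R1881 libraries (-0.54, SE 0.11, edgeR adjusted p 0.00111) and under the 2-fold limit. NUPR1 was at 0.66 and NIBAN1 at -0.97 (called, just at the 2-fold limit, without C4-2 combination replicate 2), both passing by adjusted p alone.

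For 3 serine enzymes both combination libraries were the lowest of the C4-2 libraries. PSAT1 was at 777 and 794 CPM with R1881, 321 and 259 CPM with namoline, 404 and 335 CPM with TCE-5002 and 151 and 163 CPM with both (-2.34 against R1881, SE 0.13, edgeR adjusted p 1.38e-08). PSPH, which releases serine from phosphoserine, followed the series 103 and 96.7, 54.5 and 51.9, 77.7 and 73.9, and 20.8 and 21.5 CPM (-2.25, SE 0.12, edgeR adjusted p 5.83e-09). PHGDH was at 226 and 253 CPM when both were given (-1.35, SE 0.11, edgeR adjusted p 3.71e-07). None of the 3 showed overlap between the combination and any other C4-2 group. Against namoline the difference was called for PSPH (-1.32) and not for PSAT1 (-0.88, but -1.02 without C4-2 namoline replicate 2) or PHGDH (-0.71), and against TCE-5002 it was called for PSPH (-1.83) and PSAT1 (-1.23) and not for PHGDH (-0.58).

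SHMT2, which passes the carbon of serine to folate, was an exception in that pathway, at 607 and 661 CPM against 680 and 704 CPM with R1881 (-0.14, edgeR adjusted p 0.318). MTHFD2 (-1.18), CTH (-1.40) and CBS (-1.06) fell with the combination. The CBS value is uncertain, since a near-identical copy of the gene is annotated and shared fragments may have been left uncounted. PYCR1 (-0.83, edgeR adjusted p 0.000198) and ALDH18A1 (-0.51, edgeR adjusted p 0.001) of proline synthesis passed by adjusted p alone. Other calls were PCK2 (-2.03), the alanine aminotransferase GPT2 (-1.48), INHBE (-2.50), STC2 (-1.49) and VLDLR (-1.03), the last at -0.99 with RLE scaling and at -0.93 and -0.98 without C4-2 R1881 replicate 1 and C4-2 combination replicate 1. ASNS was at 569 and 643 CPM (-0.77, edgeR adjusted p 0.000177), short of 2-fold. ALDH1L2, on 11 and 6 counts, was at -1.25 (edgeR adjusted p 0.0596).

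**Figure D3:**
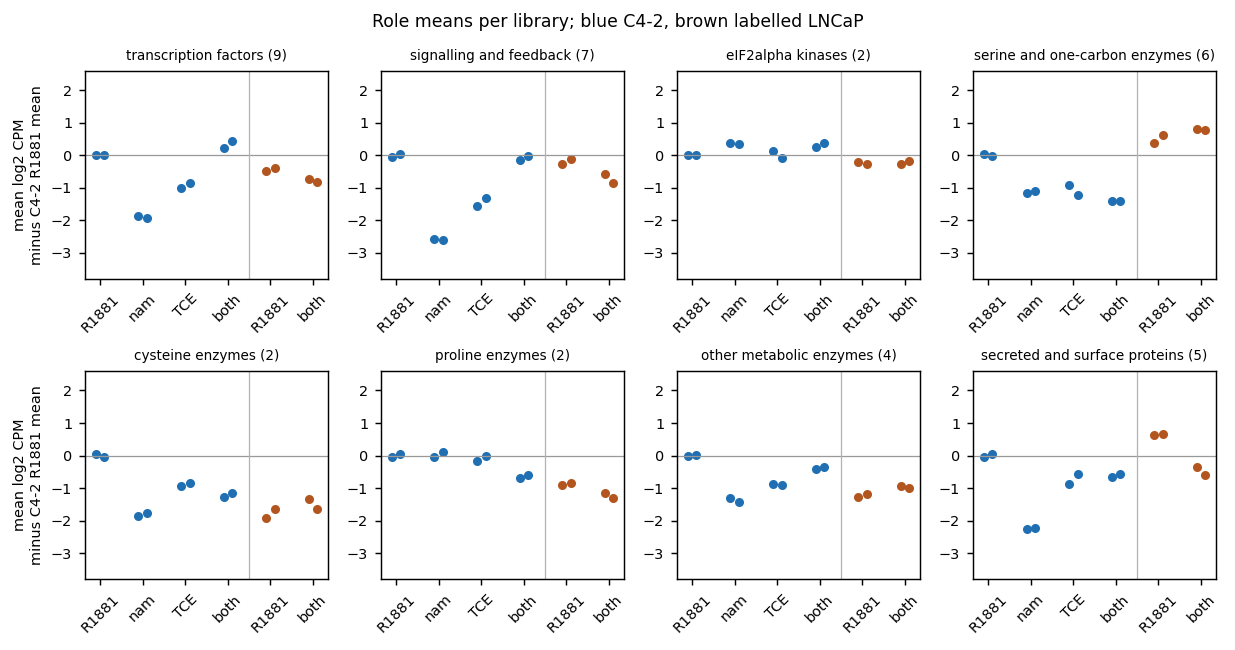
Mean log2 CPM of the members of each role (number of genes in brackets) in each library, minus the mean of the 2 C4-2 R1881 libraries; points are libraries, blue C4-2 and brown labelled LNCaP, with the groups as in the plot of CPM by library. Transcription factors stood at -1.87 and -1.92 with namoline and at 0.24 and 0.42 with both inhibitors, whereas the serine and one-carbon enzymes stood at -1.17 and -1.08 and at -1.39 and -1.42.

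The design crossed the inhibitors in C4-2, so each member could be tested for a combined effect other than the sum of the separate ones on the log2 scale (the interaction). It was positive past the limit in 24 of 37 members and negative in 0, where 16.7% and 18.6% of all genes tested were called. The median was 1.86, against -0.01 for all genes. By adjusted p alone, as by unadjusted p under 0.05, 27 were positive and 5 negative (25.6% and 27.9% of all genes), and DESeq2 called 0 negative. DDIT3 (7.39, SE 0.18), ATF3 (6.29, SE 0.17), FGF21 (6.18, SE 0.51), PPP1R15A (5.99, SE 0.24) and CHAC1 (4.86, SE 0.25) had the largest values, with edgeR adjusted p from 2.68e-12 to 1.93e-07. The FGF21 value rested on 4 and 3 counts with namoline. Its level with both inhibitors (5.65 and 5.89 CPM) was near that with R1881 (4.87 and 5.76 CPM). CHAC1 was called as positive although its level with both inhibitors was 3.95-fold below R1881: its separate effects of -4.75 and -2.09 summed to less than its combined effect of -1.98.

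All 7 signalling and feedback genes had a positive interaction: besides PPP1R15A and CHAC1, SESN2 (4.14), TRIB3 (3.97), GTPBP2 (3.90), NIBAN1 (3.65) and EIF4EBP1 (1.36). Among transcription factors NUPR1 (3.86), CREBRF (3.72), CEBPG (2.84), CEBPB (2.28) and ATF4 (1.44) followed, while JDP2 (0.74) and ATF5 (-0.04, edgeR adjusted p 0.913) were not called. Of the 10 synthesis enzymes 4 were called: CTH (2.79), MTHFD2 (1.65), SHMT2 (1.23) and ALDH1L2 (2.55), the last on few counts and lost with DESeq2 and without C4-2 R1881 replicate 1 (2.34), TCE-5002 replicate 2 (1.94), namoline replicate 1 (2.20) or combination replicate 1 (2.12). PHGDH at 0.07 (SE 0.15), PSAT1 at 0.23 (SE 0.18) and CBS at 0.21 (SE 0.18) lay close to the sum of the separate effects. Negative values under the limit were found for PSPH (-0.90), GPT2 (-0.85), EIF2AK4 (-0.66, against 0.57 for EIF2AK3), ALDH18A1 (-0.59) and PYCR1 (-0.56). UPP1 (4.39), ASNS (2.52), PCK2 (1.54), INHBE (3.32) and STC2 (1.86) completed the calls. GDF15 (0.73, and past 2-fold at 1.16 without C4-2 TCE-5002 replicate 2) and VLDLR (-0.11) were not among them. INHBE had only 10 to 19 counts in each C4-2 library given an inhibitor, against 123 and 85 with R1881. As with CHAC1, a positive value need not mean a level above R1881: PCK2 was at 136 CPM with both inhibitors and 551 CPM with R1881.

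**Figure D4:**
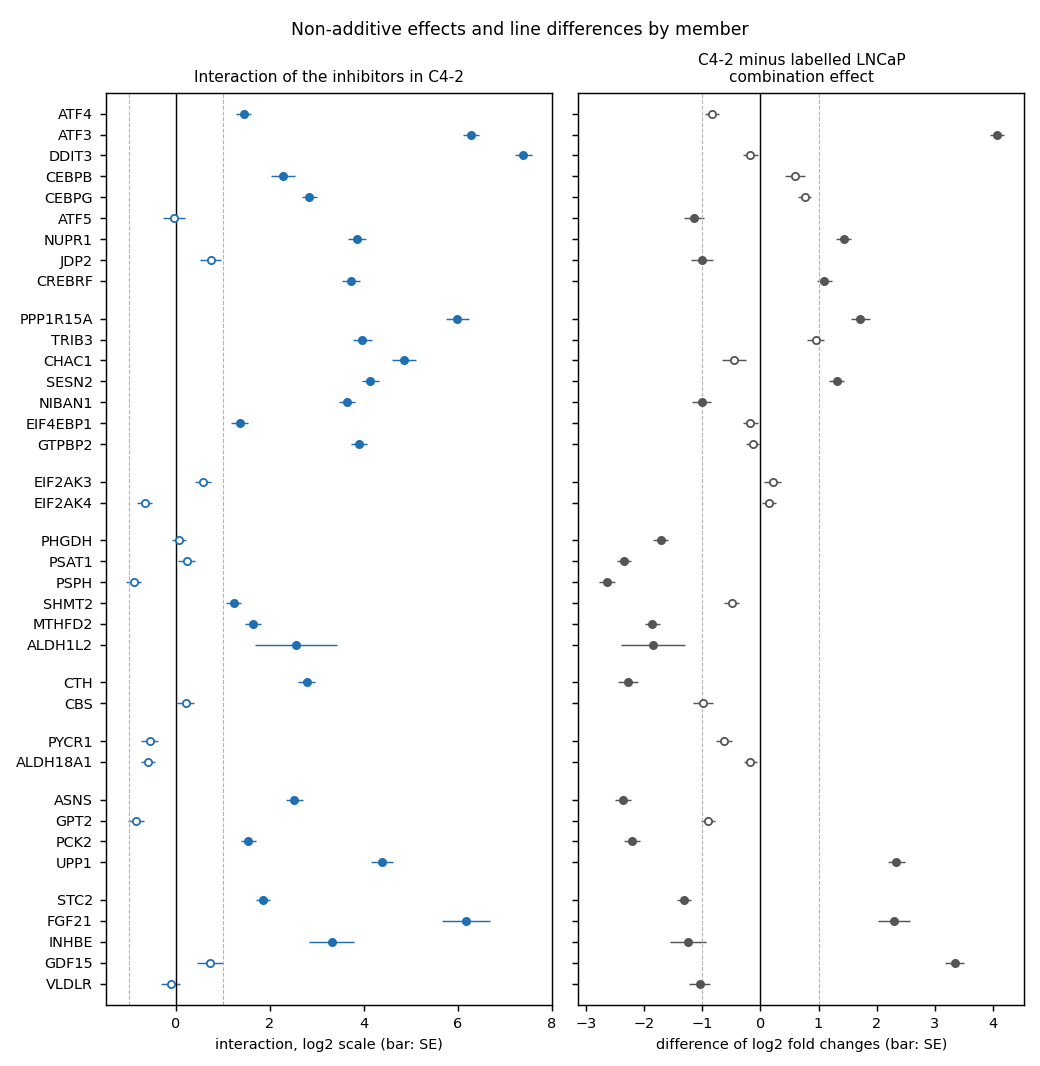
Left, interaction of the 2 inhibitors in C4-2 on the log2 scale; right, C4-2 minus labelled LNCaP difference in the log2 effect of the combination; rows are the 37 members by role, bars the SE, filled points called, and dashed lines 2-fold. On the left DDIT3 lies at 7.39 and PSPH at -0.90, and on the right ATF3 lies at 4.07 and PSPH at -2.64.

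Measured against each inhibitor alone, the combination gave a higher level than namoline in 17 members and a lower in 2 (12.8% and 14.7% of all genes), and a higher level than TCE-5002 in 10 and a lower in 4 (11.7% and 14.3%). Without the 2-fold limit 30 differed from namoline and 29 from TCE-5002, against 55.9% and 55.1% of all genes. ATF3 was 47.7-fold above namoline and 24.4-fold above TCE-5002, and DDIT3 42.8-fold and 8.37-fold above them. CHAC1 was 6.82-fold above namoline, and its TCE-5002 and combination libraries overlapped (0.11, edgeR adjusted p 0.578). The members lower than with namoline were ATF5 (-1.39) and PSPH (-1.32). Those lower than with TCE-5002 were PSPH (-1.83), GPT2 (-1.36), PSAT1 (-1.23) and JDP2 (-1.02), of which JDP2 lost its call with RLE scaling (-0.98) and without C4-2 TCE-5002 replicate 2 (-0.88) or C4-2 combination replicate 1 (-0.93).

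In labelled LNCaP the combination raised ASNS and DDIT3 and lowered 6 members against R1881. These counts of 2 and 6 of 37 were close to the shares of all 17565 genes tested, 7.44% and 11.3%, and the members' median log2 fold change was -0.05. By adjusted p alone 11 were higher and 13 lower, or 24 in all, against 56.2% of all genes. The groups did not overlap in 13 members that were higher and 18 that were lower (35.6% and 42.2% of all genes). Without LNCaP combination replicate 1, whose column name lacks TCE-5002, 2 rose and 7 fell, no member's log2 fold change moved by more than 0.34, and 9 were higher and 17 lower by adjusted p. ASNS went from 220 and 254 CPM to 661 CPM in both libraries (1.54, SE 0.11, edgeR adjusted p 5.74e-13), and was 1.52 without that replicate. DDIT3 went from 25.8 and 30.0 CPM to 57.4 and 66.9 CPM (1.21, SE 0.12, edgeR adjusted p 4.59e-10), and was 1.31 without it.

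The members that fell were FGF21 (-2.23), GDF15 (-1.59), CHAC1 (-1.58), SESN2 (-1.50), INHBE (-1.30) and ATF5 (-1.27). Without LNCaP combination replicate 1 these were -2.37, -1.79, -1.92, -1.67, -1.55 and -1.39, in the same order. With GC correction ATF5 was at -0.98 and lost its call. GDF15 went from 264 and 258 CPM to 93.6 and 73.1 CPM (SE 0.11, edgeR adjusted p 3.46e-13). CHAC1 went from 30.1 and 27.2 CPM to 11.1 and 7.33 CPM (SE 0.16, edgeR adjusted p 8.02e-10). For both genes the combination libraries lay below the R1881 libraries. ATF3 stood at 343 and 346 CPM with R1881 and 292 and 273 CPM with the combination (-0.23, edgeR adjusted p 0.0643, and -0.29 with edgeR adjusted p 0.0235 without that replicate), and PPP1R15A at 143 and 181 CPM and 267 and 220 CPM (0.65, edgeR adjusted p 1.62e-05, and 0.49 without it). CEBPB was at -0.93 and passed 2-fold without that replicate (-1.19) or without LNCaP R1881 replicate 1 (-1.03). By edgeR, as by DESeq2, 0 of the 10 synthesis enzymes were called. At an unadjusted p under 0.05 6 were higher and 2 lower, with a median of 0.30. At an adjusted p under 0.05 6 were higher and 1 lower, where 56.2% of all genes passed in either direction. CTH was at 0.83 (1.09 and called without LNCaP R1881 replicate 2), MTHFD2 at 0.63, ALDH1L2 at 0.53, PSPH at 0.34 and PHGDH at 0.31, while PSAT1 was at -0.05 (edgeR adjusted p 0.715). Without LNCaP combination replicate 1 these were 0.77, 0.66, 0.48, 0.36, 0.18 and -0.07. SHMT2, CBS, PYCR1 and ALDH18A1 were at 0.30, -0.13, -0.25 and -0.39 with all libraries. Without that replicate they were at 0.23, -0.42, -0.42 and -0.40, in the same order. The counts of enzymes higher and lower given above include that replicate and depend on it. Without it PHGDH and SHMT2 were closer to no change, and CBS and PYCR1 were further below R1881. Among the other factors TRIB3 (-0.73), CEBPG (-0.70), NUPR1 (-0.82) and JDP2 (-0.71) were lower and CREBRF (0.77) higher by adjusted p alone.

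The combination effect was then compared between the lines in 1 fit. It was higher in C4-2 for 8 members and lower for 14, against 11.4% and 13.9% of all 19763 genes tested, and without LNCaP combination replicate 1 it was higher for 9 and lower for 11, with no value moving by more than 0.31. The range over all libraries left out in turn was 18 to 23. On the higher side stood ATF3 (4.07, SE 0.12, edgeR adjusted p 3.86e-17), GDF15 (3.34), UPP1 (2.34), FGF21 (2.30), PPP1R15A (1.72), NUPR1 (1.43), SESN2 (1.31) and CREBRF (1.10). The DDIT3 effect did not pass the test of a difference (-0.17, SE 0.13, edgeR adjusted p 0.31), although its level with R1881 differed widely between the lines. TRIB3 was at 0.95 and passed 2-fold without LNCaP R1881 replicate 1 (1.20) or LNCaP combination replicate 1 (1.08), and CBS was at -0.98 and passed without LNCaP combination replicate 2 (-1.23).

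On the lower side were 6 of the 10 synthesis enzymes, with 0 higher: PSPH (-2.64, SE 0.14, edgeR adjusted p 9.12e-13), PSAT1 (-2.34), CTH (-2.27), MTHFD2 (-1.86), ALDH1L2 (-1.84) and PHGDH (-1.71). ASNS (-2.36, SE 0.13, edgeR adjusted p 1.13e-12) and PCK2 (-2.20) were lower too. ASNS was the member called up in the libraries labelled LNCaP that was below its R1881 level in both C4-2 combination libraries. STC2 (-1.32), INHBE (-1.25), ATF5 (-1.14), VLDLR (-1.04), JDP2 (-1.01) and NIBAN1 (-1.01) were also called, the last 3 losing the call with RLE scaling (-0.98, -0.95 and -0.95) and without LNCaP combination replicate 1 (-0.92, -0.94 and -0.89) or LNCaP R1881 replicate 1 (-0.94, -0.91 and -0.68). ATF5 lost it without LNCaP R1881 replicate 1 (-0.89) or C4-2 combination replicate 1 (-0.98), and ALDH1L2 without C4-2 R1881 replicate 1 (-1.63). By unadjusted p under 0.05 in edgeR, 0 of the synthesis enzymes were higher, and DESeq2 called 0 higher. Treatment apart, the libraries labelled LNCaP also differ from C4-2 in the markers given above, and the line and those differences cannot be told apart.

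With R1881 alone C4-2 had 10 members higher and 7 lower than labelled LNCaP. These 17 of 37 did not exceed the background, since 24.3% and 26.2% of all genes were called in those directions (50.5% in all). Without the 2-fold limit 31 differed, against 76.8%. DDIT3 was 13.8-fold higher in C4-2 (3.79, SE 0.10, edgeR adjusted p 1.27e-19). NIBAN1 (4.56), PCK2 (2.95), NUPR1 (2.86), CBS (2.50), ASNS (2.16), PYCR1 (1.84) and PSPH (1.79) were higher as well. CTH (1.13) and JDP2 (1.01) were near the limit, CTH at 0.88 without LNCaP R1881 replicate 1 and JDP2 at 0.96 with RLE scaling. ALDH1L2, at 95.3 and 148 CPM in the libraries labelled LNCaP and 1.31 and 1.02 CPM in C4-2, differed most (-6.62, SE 0.22, edgeR adjusted p 3.39e-18). PPP1R15A (-2.98), INHBE (-2.50), CEBPG (-1.76), FGF21 (-1.64), SESN2 (-1.52) and ATF3 (-1.44) were lower in C4-2. ATF4, at 722 and 742 CPM in C4-2 and 655 and 671 CPM in the libraries labelled LNCaP, differed by 0.20 (edgeR adjusted p 0.0327).

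Counting bears on some of these genes. Fragments were counted without strand, and those that overlapped more than 1 gene were left out. MARS1, the cytosolic methionyl-tRNA synthetase, lies on the opposite strand to DDIT3 and shares 28% of the DDIT3 exonic length. The log2 fold changes of MARS1 in C4-2 were -0.82 for namoline, -0.42 for TCE-5002 and 0.30 for both, and 0.59 with both in labelled LNCaP, below 2-fold each time. Other members shared exonic bases as well: MTHFD2 33.2%, PYCR1 29.9%, ATF5 23.7%, EIF2AK3 15.1%, CEBPB 11.8%, SHMT2 9.51% and VLDLR 7.9%. The part of such overlap in the results was not tested.

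ATF4 targets outside the 37 genes gave a further description of the pathway. Of 20 such genes, mostly amino acid transporters and aminoacyl-tRNA synthetases, 13 fell and 0 rose with namoline (6.88% and 5.17% of all genes), led by the glycine transporter SLC6A9 (-2.75) and the mTORC1 inhibitor DDIT4 (-2.44). With TCE-5002 7 fell and 0 rose (6.80% and 5.04% of all genes), led by SLC6A9 (-2.04) and WARS1 (-1.68). The combination in C4-2 raised SLC3A2 (1.47) and KLHL24 (1.26) and lowered 5, led by SLC7A5 (-2.15) and SLC1A4 (-1.67), where 8.87% and 12.8% of all genes were called. The products of SLC3A2 and SLC7A5 pair as heavy and light chain of the leucine transporter, and these genes moved in opposite directions. The interaction was positive in 16 and negative in 0 (16.7% and 18.6% of all genes). At an unadjusted p under 0.05, 0 of the 20 were higher with either inhibitor alone and 0 had a negative interaction. In the libraries labelled LNCaP 2 rose, NARS1 (1.14) and GARS1 (1.04), against 7.44% of all genes. There 4 fell, led by DDIT4 (-3.14) and SLC7A5 (-1.37), against 11.3% of all genes. By adjusted p alone 11 were higher and 8 lower, or 19 of the 20, against 56.2% of all genes.

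The eIF2 machinery, 15 genes for subunits, exchange factors, kinases and regulators of eIF2 outside the members, had 0 calls with namoline, TCE-5002 or the combination in C4-2 by edgeR. At an unadjusted p under 0.05 there were 7, 9 and 11, and at an adjusted p under 0.05 7, 6 and 8 of 15, near the 35.0%, 36.5% and 50.3% of all genes. In labelled LNCaP, with the combination, 2 rose, EIF2B3 (1.49) and EIF2B5 (1.03), where 7.44% of all genes did. Paralogs of the members, of which 20 of 23 passed the filter in C4-2, gave 4 higher and 0 lower with namoline, led by ALDH1L1 (1.59) and PYCR3 (1.38), and 1 higher and 0 lower with TCE-5002, SESN3 (1.37). At an unadjusted p under 0.05 2 paralogs were lower in each of those comparisons. All genes called higher were 5.17% and 5.04% there, and 6.88% and 6.80% were lower. With the combination 3 were higher, led by ALDH1L1 (3.99) and SESN1 (1.43), and 2 were lower, STC1 (-3.25) and CEBPD (-2.07), against 8.87% and 12.8% of all genes. The ALDH1L1 value rested on 111 and 128 counts against 10 and 6 with R1881, and that of STC1 on 2 and 1 against 21 and 12. With the combination in labelled LNCaP 1 paralog was higher and 4 were lower, against 7.44% and 11.3% of all genes. ALDH1L1, the cytosolic counterpart of ALDH1L2, thus rose with the combination in C4-2, where both genes had few counts with R1881.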

How the data were processed

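The authors captured polyadenylated RNA, sequenced paired ends, trimmed reads with TrimGalore and mapped them with STAR (GRCh38). The authors then ran featureCounts (1.5.0-p1, Ensembl 83) and deposited, for each library, raw whole-number counts per gene without normalisation. No strand option was set, and fragments on several genes were left uncounted.

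CPM were derived from those counts, using TMM scaling across the 12 libraries. Comparisons were fitted with edgeR 4.0.16 (R 4.3.3, limma 3.58.1; filterByExpr, TMM, quasi-likelihood F test) on the 8 C4-2 libraries (4 residual degrees of freedom), on the 4 libraries labelled LNCaP (2) and, between lines, on the 8 libraries with R1881 or the combination. P-values were adjusted (Benjamini-Hochberg) over all genes tested. SE was obtained by dividing the size of the log2 fold change by sqrt(F). A call needed an adjusted p under 0.05 and at least 2-fold. All 37 members were named whatever their values, and from the other lists at most 2 called genes per direction, with MARS1. The members and lists were chosen with earlier results of these data known. The steps were tested on simulated counts. Groups came from titles, since a treatment protocol in the labels describes siRNA. Total counts of 14791602 to 20690819 limit precision for members with few counts. Alternatives comprised DESeq2 1.42.0, RLE scaling, unfiltered genes, a replicate block, adjusted p alone, only the libraries compared and each library left out, and a GC correction chosen after seeing the data.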

Additional observations from a re-analysis of the deposited data

Results flagged for a closer look

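The effect of the combination differed between C4-2 and the libraries labelled LNCaP for 22 members, by the test of the difference in 1 edgeR fit. The differences of log2 fold changes, C4-2 minus LNCaP, were 4.07 for ATF3, 3.34 for GDF15, 2.34 for UPP1, 2.30 for FGF21, 1.72 for PPP1R15A, 1.43 for NUPR1, 1.31 for SESN2 and 1.10 for CREBRF. Among enzymes they were -2.64 for PSPH, -2.36 for ASNS, -2.34 for PSAT1, -2.27 for CTH, -2.20 for PCK2, -1.86 for MTHFD2, -1.84 for ALDH1L2 and -1.71 for PHGDH. The others were -1.32 for STC2, -1.25 for INHBE, -1.14 for ATF5, -1.04 for VLDLR, -1.01 for JDP2 and -1.01 for NIBAN1. VLDLR, JDP2 and NIBAN1 fell short of 2-fold with RLE scaling (-0.98, -0.95 and -0.95). Without LNCaP combination replicate 1 they were at -0.92, -0.94 and -0.89. ATF5 fell short without LNCaP R1881 replicate 1 (-0.89) or C4-2 combination replicate 1 (-0.98), and ALDH1L2 rested on few counts in C4-2. GDF15 rose in C4-2 and fell in labelled LNCaP, past both limits in each. Groups of 2 libraries are too small for a test of outlying samples.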

How the results depend on the processing

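Counts of members called stayed within 1.5 times the reported ones under RLE scaling, no filter, DESeq2, the replicate block, the GC correction and each library left out. Without the 2-fold limit, genes called were 6195 (namoline), 6464 (TCE-5002), 8909 (C4-2 combination), 9895 (combination against namoline), 9749 (combination against TCE-5002), 3215 (namoline against TCE-5002), 9463 (interaction), 9877 (LNCaP combination), 9404 (line difference) and 15183 (R1881 baseline). Members called that way were 30 with TCE-5002, 30 and 29 for the combination against namoline and TCE-5002, 25 for namoline against TCE-5002, 24 for LNCaP and 31 at baseline. With 1 library left out, genes called for namoline against TCE-5002 ran from 494 (without C4-2 namoline replicate 2) to 1211, and members from 10 to 14.

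Replicate numbers were not taken as pairs, because not every correlation of the deviations of same-numbered libraries exceeded 0.1. Over 10402 genes it ran from 0.11 to 0.27 in 4 of the 6 pairs of C4-2 groups and was 0.05 and -0.02 in the others, 0.07 between the LNCaP groups and -0.44 to -0.04 between the lines. With the replicate number as a block, 2181 genes were called with namoline (25 members), 2129 with TCE-5002 (19 members), 3871 with the C4-2 combination (20 members) and 3062 in LNCaP (8 members).

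Of 3626 member values, 46 changed sign, in 26 results that were not called (largest 0.26). With TCE-5002, VLDLR was 0.02 after GC correction and -0.18 to 0.01 with a library left out, and PYCR1 -0.34 to 0.07. With the C4-2 combination FGF21 ran from -0.02 to 0.23. Against namoline ALDH1L2 ran from -0.17 to 0.75. Against TCE-5002, EIF2AK4 was 0.01 under RLE and DESeq2 (-0.17 to 0.12 with a library left out), CTH 0.01 under both (-0.09 to 0.04), MTHFD2 -0.05 after GC correction (-0.08 to 0.24) and GDF15 -0.22 to 0.55. For namoline against TCE-5002, PYCR1 was 0.02 after GC correction (-0.23 to 0.21) and PCK2 -0.18 to 0.04. The ATF5 interaction was 0.02 under RLE and DESeq2 and 0.31 after GC correction (-0.25 to 0.23). In LNCaP, NIBAN1 was 0.01 with the block (-0.24 to 0.27), PSAT1 -0.17 to 0.06, CBS 0.07 after GC correction (-0.42 to 0.12), PCK2 -0.06 to 0.27 and VLDLR -0.18 to 0.09, and after GC correction EIF4EBP1 was 0.40, EIF2AK3 -0.09, EIF2AK4 -0.03 and PYCR1 0.13. For the line difference DDIT3 ran from -0.29 to 0.04, EIF4EBP1 from -0.29 to 0.00 and GTPBP2 from -0.17 to 0.02. At baseline EIF4EBP1 was -0.03 under RLE and DESeq2 (-0.07 to 0.07), TRIB3 -0.03 to 0.26 and PSAT1 -0.01 to 0.21. The cause was not tested.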
